A study of Mus musculus with 27 samples.

Results

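The immature neuron genes Insm1, Tox3, Cd24a, Dcx, Nhlh1, Nhlh2, Cntn2 and Stmn1 are described here in mouse cerebellar tumours driven by Hedgehog signalling and in cerebellar tissue without tumour. These 8 genes, of 13527 genes measured, were chosen by their tumour minus control values, as immature neuron genes among or beside the largest gains of signal. Those values are therefore given as a description, with no test. Comparisons between the kinds of tumour were not themselves used in the choice and were tested. The values of every kind of tumour entered the gains, however, so a gene low in any of them had a smaller gain. Counts of the 8 genes called between the kinds of tumour are therefore not independent of the choice. The genes are read by 18 probe sets annotated to no other gene, and all 8 genes and all 18 probe sets passed the filter on low signal.

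Total RNA from 27 samples was measured on 1 Affymetrix array each, as the labels name separate biological replicates without saying that each came from another animal. The tests below therefore take the variation between arrays of a group as their error, which may be partly technical. The SmoM2 tumours carried an activated form of Smoothened, the transducer of the Hedgehog signal, switched on by a cre transgene. They came from Math1-cre:SmoM2 mice (3 arrays), Tlx3-cre:SmoM2 mice (3 arrays), Olig2-tva-cre:SmoM2 mice (7 arrays) and hGFAP-cre:SmoM2 mice (6 arrays). The promoter named first drove the recombinase, so SmoM2 could be switched on in cells in which that promoter had been active. Which of those cells formed the tumour is not shown by these arrays. The remaining tumours came from Ptc1+/- mice (2 arrays), which lack 1 copy of the Patched receptor that restrains Smoothened. The 6 controls were non-tumour cerebellum of mice that carried the same kinds of allele, so no array is of wild-type tissue. Controls 1 and 2 came from Olig2-tva-cre:SmoM2 mice, control 3 from an hGFAP-cre:SmoM2 mouse, controls 4 and 5 from Mxi1-cre:SmoM2 mice and control 6 from a Ptc1+/- mouse. Ages were not given in the sources used here. In such bulk tissue, more cells of a type and more RNA per cell cannot be told apart.

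Cerebellar granule neurons are born from precursors that divide in the outer layer of the young cerebellum under the Hedgehog signal. As they leave the cell cycle they pass through a short stage in which transcription factors of early neurons, adhesion molecules and regulators of microtubules are switched on, and then migrate inward. Insm1 and Tox3 encode nuclear proteins, Nhlh1 and Nhlh2 encode a closely related pair of basic helix-loop-helix transcription factors of newborn neurons, and Dcx and Stmn1 encode a stabiliser and a destabiliser of microtubules. Cd24a and Cntn2 encode cell surface proteins, the latter the axonal adhesion molecule TAG-1, which marks postmitotic granule cells before they migrate and is also made by myelinating glia.

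The promoters of the pair of related transcription factors, which varied most alike among the 8 genes across the tumours on the probe sets used, are shown first. Beside them are those of Dcx, with most separation between tumour groups on the probe sets used, and Cntn2, the gene without a general gain. Each sequence is the 250 bases before the RefSeq start site on the GRCm38.p6 build, 5′ to 3′ on the strand of the gene. Capitals mark every match, on either strand, to the words listed after the sequences.
Nhlh1, chr1:172057597-172057846, minus strand: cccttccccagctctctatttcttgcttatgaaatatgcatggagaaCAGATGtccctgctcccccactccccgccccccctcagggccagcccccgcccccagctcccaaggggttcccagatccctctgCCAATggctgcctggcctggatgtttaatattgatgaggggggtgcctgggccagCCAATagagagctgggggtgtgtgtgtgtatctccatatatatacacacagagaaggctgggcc
Nhlh2, chr3:102009895-102010144, plus strand: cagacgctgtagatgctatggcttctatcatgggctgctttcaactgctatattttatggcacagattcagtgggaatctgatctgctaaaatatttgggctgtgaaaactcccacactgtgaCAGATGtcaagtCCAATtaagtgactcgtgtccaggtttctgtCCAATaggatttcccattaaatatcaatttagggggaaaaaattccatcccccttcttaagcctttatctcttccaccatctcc
Dcx, chrX:143933220-143933469, minus strand: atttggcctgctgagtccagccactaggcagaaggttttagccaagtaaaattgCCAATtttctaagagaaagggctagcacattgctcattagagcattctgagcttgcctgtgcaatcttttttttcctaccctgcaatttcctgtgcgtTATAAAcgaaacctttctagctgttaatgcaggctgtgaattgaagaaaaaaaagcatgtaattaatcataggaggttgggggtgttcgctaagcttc
Cntn2, chr1:132542941-132543190, minus strand: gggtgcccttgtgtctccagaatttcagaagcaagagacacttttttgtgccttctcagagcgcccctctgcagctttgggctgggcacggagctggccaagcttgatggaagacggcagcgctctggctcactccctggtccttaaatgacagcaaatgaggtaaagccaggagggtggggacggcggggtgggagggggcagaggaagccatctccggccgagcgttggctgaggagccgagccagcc

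The words searched were E-boxes that basic helix-loop-helix proteins can bind (the word CAGCTG as well as CAGATG with its reverse CATCTG), a Gli word of the Hedgehog pathway (GACCACCCA or TGGGTGGTC), the CCAAT box (ATTGG or CCAAT) and a TATA word (TATAAA or TTTATA). They do not overlap one another as words. RefSeq windows of 300 bases, 250 before to 50 after the start site, were matched by symbol for 5 of the 8 genes: Tox3, Dcx, Nhlh1, Nhlh2 and Cntn2. Nhlh1 and Nhlh2 each held CAGATG upstream, at -203 and -127 from the start, and 17.2% of all 32851 windows held that word. Both also held CCAAT boxes, at -119 and -64 in Nhlh1 and at -115 and -84 in Nhlh2, a word present in 37.4% of windows. Nhlh2 had further matches after its start, CAGCTG at 45 and ATTGG at 12. CAGCTG, present in 16.3% of windows, also stood at -218 in Tox3. The upstream bases of Dcx held CCAAT at -196 and TATAAA at -98, the latter word being found in 13.6% of windows; Dcx had a second listed start site with ATTGG at 9 and TATAAA at -193. Cntn2 held no match. The Gli word was in none of these windows and in 0.253% of all windows. Base composition differed widely: Tox3 was 85.3% G or C, at the 99.9th percentile of all windows, Cntn2 61.3%, Nhlh1 56.3%, Nhlh2 43.3% and Dcx 43.0%, against a median of 52.7%. A match is a description of the letters and not a measured binding site.

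Signals are given as log2 after each array was scaled to 1 common trimmed mean, with a floor of 3.37 for the lowest values; 1 unit is a doubling. Levels of different genes cannot be compared on this scale, because probe sets differ in brightness. Before scaling, trimmed means ranged from 42.6 to 206 signal units. A log2 ratio of signals at the 3′ and 5′ ends of Gapdh and Actb, a common gauge of RNA and labelling quality, was from 1.67 to 1.88 on 5 arrays (hGFAP 4, hGFAP 6, Olig2 3, Olig2 4 and control 1) and from -0.15 to 0.90 on the others. Among the marker lists, 17 of 17 mitosis genes and 9 of 9 microglia markers were higher in tumours than in control tissue, and 10 of 10 mature granule neuron, 7 of 7 Purkinje cell, 5 of 5 interneuron and 7 of 7 oligodendrocyte markers were lower (limma, adjusted p below 0.05). Of astrocyte markers, 1 rose and 8 fell. Choroid plexus markers had 0 higher and 1 lower, and endothelial markers 0 higher and 2 lower. Their part in the values of the 8 genes was not tested.

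In 7 of the 8 genes, every one of the 21 tumour arrays lay above every one of the 6 control arrays. The exception was Cntn2. Across all genes, 1101 of 13527 (8.14%) had such a separation; since gains chose the genes, nothing is read from the share. The mean of the 5 tumour groups minus the control mean ranked Insm1 first of 13527 genes, Cd24a 5th, Tox3 7th, Dcx 18th, Nhlh1 80th, Nhlh2 212th, Stmn1 1052nd and Cntn2 5725th. Between these stood Sox11 at 6.53, Mki67 at 6.29, Cdk6 at 6.20 and Top2a at 6.15. The separation of the 7 genes and the overlap of tumours and controls for Cntn2 can be seen in the plot of signal by array.

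**Figure D1:**
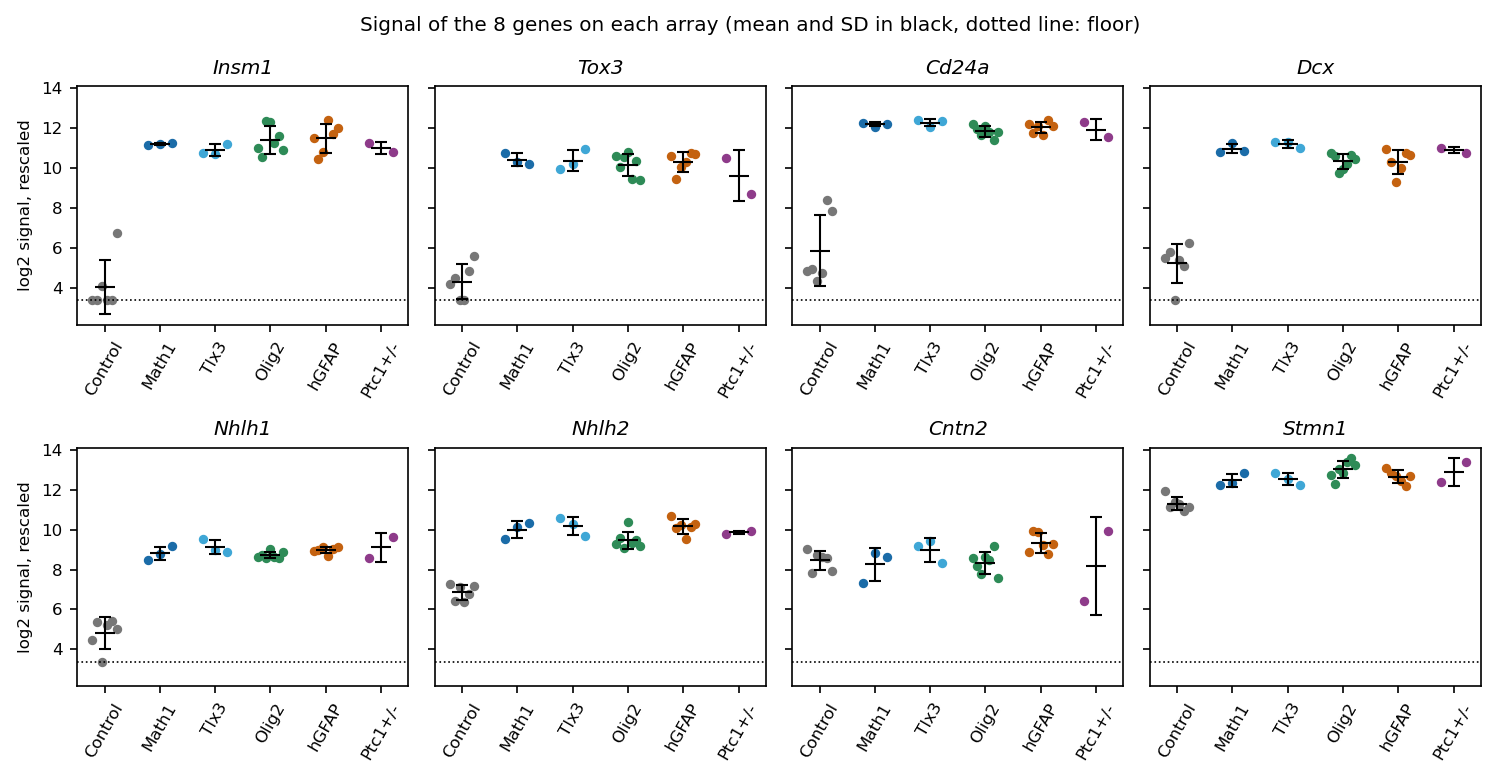
The log2 scaled signal of each of the 8 genes (vertical axis) is plotted for every array by group (horizontal axis), with the group mean and SD in black and the floor of 3.37 as a dotted line. All tumour arrays lie above all control arrays for 7 genes, whereas for Cntn2 the groups overlap.

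Among the transcription factors, Insm1, a zinc-finger transcriptional repressor that promotes neuronal and endocrine differentiation, stood first for this difference with the floor used here. Its log2 signal was 11.17, 11.19 and 11.26 in Math1-cre tumours and 10.76, 10.73 and 11.23 in Tlx3-cre tumours. The Ptc1+/- tumours gave 11.24 and 10.79. Olig2-tva-cre tumours ran from 10.55 through a median of 11.29 to 12.37, and hGFAP-cre tumours from 10.48 through 11.64 to 12.40. The tumour groups overlapped fully, and the highest arrays were Olig2 3, Olig2 4, hGFAP 4 and hGFAP 6, the tumour arrays with the highest 3′/5′ ratio. Control tissue stood at the floor on 4 of 6 arrays, and the other two were control 3 at 4.09 and control 6 at 6.73. The mean difference of 7.17, a 144-fold difference of the floored values, thus rests on control values that are mostly at the floor, as does its rank. With no floor and a pseudocount of 16 the differences were 6.18 for Insm1, 5.09 for Tox3 and 3.53 for Nhlh1, so the folds given for these genes depend on how low values were treated. The other Insm1 probe set, 1421399_at, had 1 control at the floor, a control mean of 4.47 ± 0.69 (SD, n = 6) and a difference of 6.65.

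Tox3, an HMG-box protein of the TOX family, was high in all 5 kinds of tumour. It gave 10.78, 10.32 and 10.19 in Math1-cre tumours and 9.96, 10.19 and 10.98 in Tlx3-cre tumours. Olig2-tva-cre tumours spanned 9.39 to 10.80 with a median of 10.34, and hGFAP-cre tumours 9.44 to 10.75 with a median of 10.46. The Ptc1+/- pair was the most unequal, at 10.53 and 8.73, and the latter was the lowest tumour array. Control tissue spanned 3.37 to 5.58 with a median of 4.34, 1 array at the floor and control 6 again highest. The difference was 5.88, or 58.7-fold, and 3.15 separated the lowest tumour array from the highest control.

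Nhlh1 and Nhlh2 were each read by 1 probe set, and these differed in how near control tissue came to the floor. For Nhlh1, Math1-cre tumours gave 8.50, 8.78 and 9.17, Tlx3-cre tumours 9.53, 9.00 and 8.88, and Ptc1+/- tumours 8.60 and 9.63. Its medians were 8.64 in Olig2-tva-cre tumours (8.57 to 9.02) and 9.00 in hGFAP-cre tumours (8.70 to 9.12). All tumour arrays thus lay within 1.12 of each other, and controls lay between 3.37 and 5.43 with a median of 5.12 and 1 at the floor. The Nhlh1 difference was 4.14, or 17.6-fold. For Nhlh2, Math1-cre tumours gave 9.52, 10.16 and 10.35, Tlx3-cre tumours 10.57, 10.26 and 9.71, and Ptc1+/- tumours 9.80 and 9.93. Olig2-tva-cre tumours were from 9.10 to 10.37 with a median of 9.31, and hGFAP-cre tumours from 9.51 to 10.70 with a median of 10.19. No control was at the Nhlh2 floor, and control arrays spanned 6.39 to 7.28 with a median of 6.95. The Nhlh2 difference was 3.08, or 8.47-fold, with 1.82 between the lowest tumour array and the highest control.

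Dcx, doublecortin, binds microtubules in migrating neurons. Its signal was 10.84, 11.27 and 10.85 in Math1-cre tumours, 11.30, 11.34 and 11.01 in Tlx3-cre tumours, and 11.03 and 10.79 in Ptc1+/- tumours. Olig2-tva-cre tumours ran from 9.76 to 10.75 with a median of 10.49, and hGFAP-cre tumours from 9.32 to 10.95 with a median of 10.48. The first 3 groups had the higher means with some overlap with hGFAP-cre arrays, and every Olig2-tva-cre array was below every array of those groups. Control arrays spanned 3.37 to 6.23 with a median of 5.44, 1 of them at the floor. The difference was 5.53, or 46.3-fold.

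Stmn1, stathmin, which binds free tubulin and is abundant in dividing and immature cells, was already bright in control tissue. Control arrays spanned 10.95 to 11.93 with a median of 11.22. Math1-cre tumours gave 12.22, 12.36 and 12.84, Tlx3-cre tumours 12.82, 12.54 and 12.26, and Ptc1+/- tumours 12.37 and 13.37. Olig2-tva-cre tumours were between 12.28 and 13.57 with a median of 13.05, and hGFAP-cre tumours between 12.22 and 13.09 with a median of 12.69. The difference was 1.41, or 2.66-fold, and only 0.29 separated the lowest tumour array, hGFAP 5, from the highest control, control 1. The brightest tumour arrays included Olig2 5, Olig2 6 and Olig2 7 at 13.40, 13.57 and 13.26. Those 3 arrays were dim before scaling, with trimmed means from 42.6 to 77.9, and had the lowest 3′/5′ ratios, from -0.15 to -0.12.

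Cd24a, a small glycoprotein anchored in the membrane of newborn neurons, blood cells and ependyma, was evenly high in tumours and uneven in control tissue on the probe set used. Math1-cre tumours gave 12.27, 12.09 and 12.24, Tlx3-cre tumours 12.42, 12.08 and 12.35, and Ptc1+/- tumours 12.30 and 11.57. Olig2-tva-cre tumours ran from 11.41 to 12.23 with a median of 11.80, and hGFAP-cre tumours from 11.65 to 12.44 with a median of 12.12. All 21 tumour arrays were within 1.02 of each other. Among controls, 4 arrays lay between 4.36 and 4.94, while control 5 was at 8.42 and control 6 at 7.87. The difference of 6.20, or 73.6-fold, was 7.34 without those 2 controls. On 1437502_x_at tumour arrays spanned 9.83 to 11.01 and controls 3.37 to 6.33. On 1416034_at the spans were 9.24 to 11.45 and 4.15 to 6.44, so tumours were not clearly the more even there.

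Both high controls had other markers that set them apart. Control 5 had Ttr, the defining choroid plexus transcript, at 13.23 against 3.90 to 7.13 on the other control arrays, and 5 of the 6 choroid plexus and ependymal markers were highest there. The mean of that list was 7.56 on control 5 and 4.62 to 5.59 on the others. Control 6 was the highest control for Insm1, Tox3 and Dcx and for 12 of 17 mitosis genes, with Top2a at 6.40 against 3.54 to 4.46 elsewhere. Its mitosis list mean was 5.35, that of the other controls 4.10 to 4.46, and that of tumour arrays 7.57 to 9.73. Their part in the control levels of the 8 genes was not tested.

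Cntn2 went against the label under which it was grouped. Math1-cre tumours gave 7.33, 8.84 and 8.64, Tlx3-cre tumours 9.20, 9.41 and 8.32, and Ptc1+/- tumours 6.44 and 9.91. Olig2-tva-cre tumours ran from 7.57 to 9.16 with a median of 8.48, and hGFAP-cre tumours from 8.79 to 9.95 with a median of 9.27. Control tissue spanned 7.83 to 9.06 with a median of 8.61, none at the floor. Tumours and controls overlapped: 8 tumour arrays were above all controls, 4 were below the lowest, and the mean difference was 0.16. The Ptc1+/- tumours stood near both ends of the range, at the lowest and the second highest tumour values.

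Probe sets of 1 gene gave unequal differences, as the plot of every probe set shows. Cd24a gave 5.57, 5.79 and 6.20 over its 3 probe sets. Dcx gave 5.53 and 5.26 on 2 probe sets and 2.65 and 1.63 on the dimmer 1448974_at and 1418140_at. The mean of the 4 was 3.77, so the size of the Dcx difference, though not its sign, depended on the probe set. Stmn1 gave 1.41 and 1.66. The 3 further Cntn2 probe sets gave 0.75, 0.80 and 0.49, with 12, 9 and 12 tumour arrays above all controls, and none of the 4 separated tumours from controls. In total, 14 of the 18 probe sets had all tumour arrays above all controls.

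**Figure D2:**
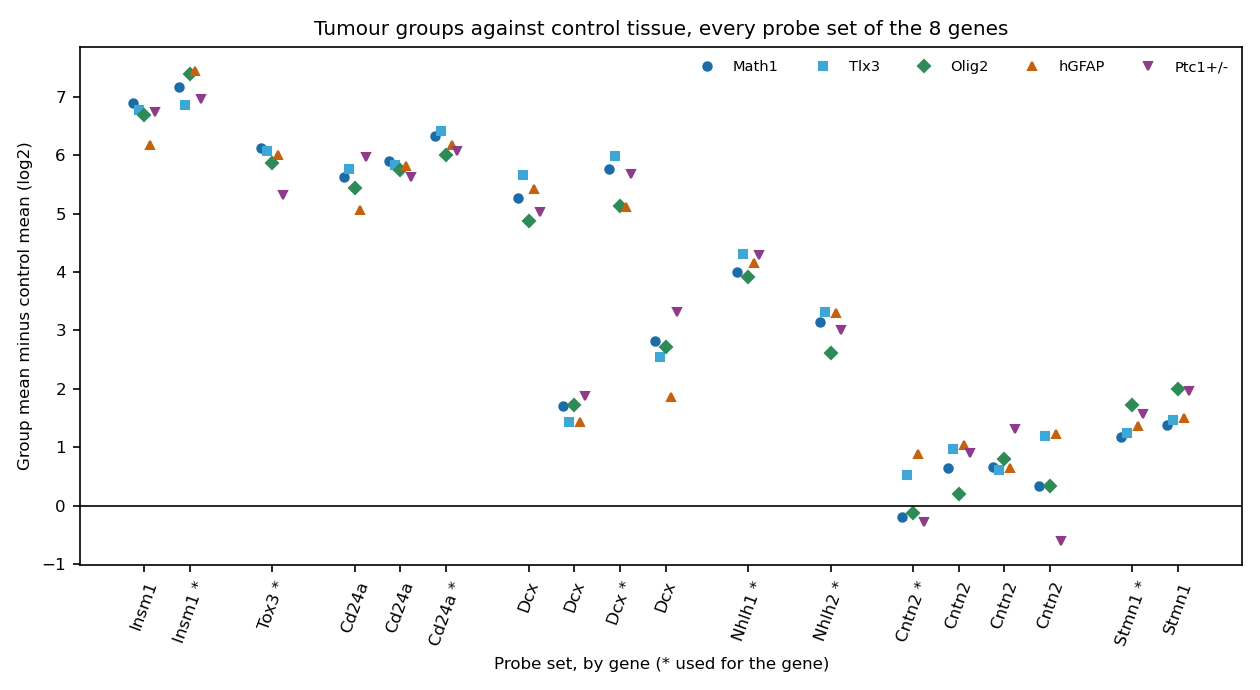
For every probe set of the 8 genes (horizontal axis, an asterisk marking the one used for the gene), points give each tumour group's mean minus the control mean on the log2 scale (vertical axis). The 5 tumour groups lie close together for most probe sets, the 4 Dcx probe sets fall into a high and a low pair, and the Cntn2 points lie on both sides of 0.

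Across the tumour arrays, probe sets of the same gene moved with the 3′/5′ ratio by different amounts. On the 4 tumour arrays of highest ratio, the Insm1 probe set used averaged 12.28, against 11.08 on the other 17, a difference of 1.21. The other Insm1 probe set averaged 10.14 against 11.27, a difference of -1.13. The 2 thus moved in opposite directions, with r = -0.47 over the 21 tumour arrays. Cd24a 1416034_at was lower by -1.37 on the 4 arrays, while the probe set used for Cd24a differed by -0.16. Dcx 1448974_at differed by -1.24, 1418141_at, used for the gene, by -0.64 and 1418139_at by 0.46. The 2 Stmn1 probe sets differed by 0.01 and -0.21. For Insm1 and Dcx, as for others of the 8, differences between tumour arrays can depend on the probe set, while for Insm1 and Dcx the distance from control tissue keeps its sign.

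**Figure D3:**
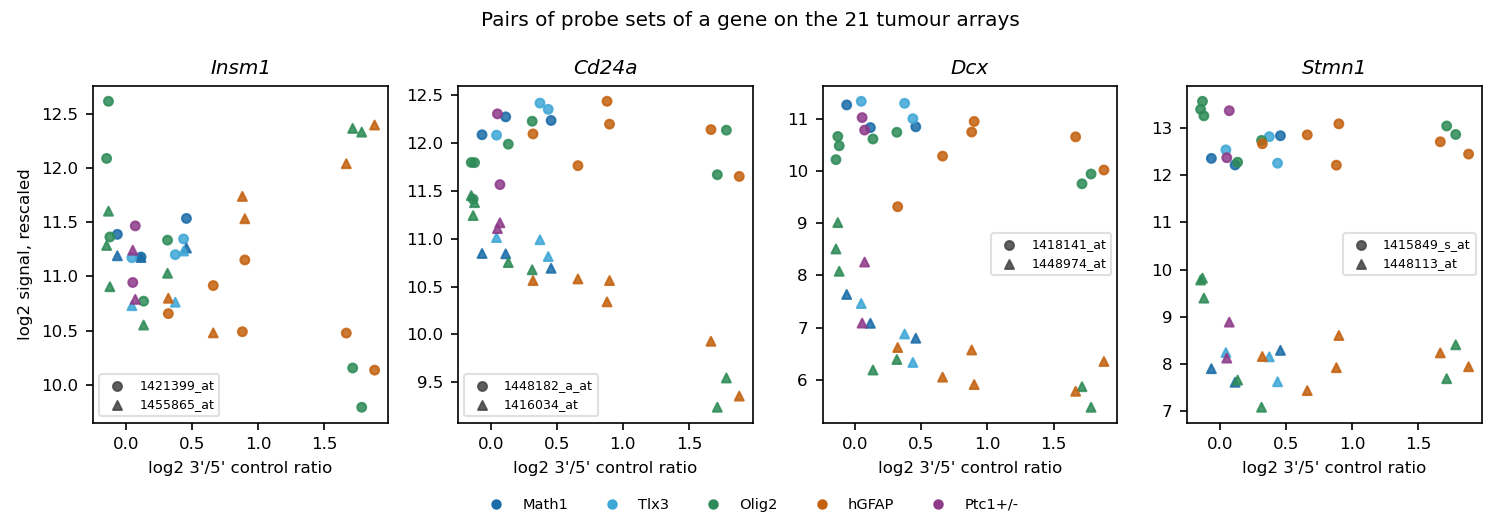
The log2 scaled signal of a pair of probe sets (circles and triangles, vertical axis) of Insm1, Cd24a, Dcx and Stmn1 is plotted against the log2 3′/5′ ratio of control transcripts (horizontal axis) for the 21 tumour arrays, coloured by tumour group. At ratios above 1.5 the Insm1 pair lies apart in opposite directions, and Cd24a 1416034_at and Dcx 1448974_at are low.

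The spread within groups also differed among the 8 genes. The SD within groups, pooled over all 6, was 0.90 for Cd24a, 0.84 for Insm1, 0.76 for Cntn2, 0.66 for Tox3 and 0.61 for Dcx, all above the median gene's 0.45. For Cd24a the tumour groups had SDs of 0.10 to 0.52 and control tissue 1.78, and for Insm1 0.05 to 0.73 and 1.34, so the controls add to the pooled spread that is also the error of the tests between tumours. Nhlh1 at 0.46 lay close to it, and Nhlh2 at 0.40 and Stmn1 at 0.38 below it. The range of the 5 tumour means was smallest for Nhlh1, at 0.41, and largest for Cntn2, at 1.16, with 0.71 for the median gene.

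The first tested question was whether the 8 genes differed among the 5 kinds of tumour, that is, with the cre driver and the genetic cause. By limma's moderated F test, 245 of 13527 genes (1.81%) differed at an adjusted p below 0.05, and 0 of the 8 did. On the probe sets used, 1 of them, Nhlh2, had an unadjusted p under 0.05. In a fit of all probe sets, so had Cntn2 1456962_at (0.0178) and Dcx 1418139_at (0.0482). The adjusted p was 0.184 for Nhlh2, 0.255 for Cntn2, 0.310 for Dcx, 0.380 for Stmn1 and from 0.747 to 0.964 for Nhlh1, Tox3, Insm1 and Cd24a. Placed in order of mean, neighbouring tumour groups overlapped in every gene except Dcx. The order for Dcx was Tlx3-cre at 11.22 ± 0.18 (SD, n = 3), Math1-cre at 10.99 ± 0.25 (n = 3), Ptc1+/- at 10.91 ± 0.17 (n = 2), Olig2-tva-cre at 10.35 ± 0.38 (n = 7) and hGFAP-cre at 10.33 ± 0.60 (n = 6). Ptc1+/- and Olig2-tva-cre were the neighbours without overlap. Overlap was judged on the probe set used for each gene, and other probe sets differed. On Cd24a 1416034_at, Ptc1+/- arrays (11.11 and 11.17) lay above all Tlx3-cre arrays (10.81 to 11.01). On Dcx 1418139_at, Math1-cre (10.19 to 10.67) overlapped Olig2-tva-cre (9.47 to 10.57). Of the 10 pairs of tumour groups, on the probe sets used, 4 did not overlap for Dcx and 0 for any of the other 7 genes. Those pairs were Math1-cre with Olig2-tva-cre, Tlx3-cre with Olig2-tva-cre, Tlx3-cre with hGFAP-cre and Olig2-tva-cre with Ptc1+/-, for which 2.06%, 4.96%, 11.6% and 5.16% of all genes did not overlap. For the other pairs the shares over all genes were 17.6% (Math1-cre with Tlx3-cre), 5.43% (Math1-cre with hGFAP-cre), 26% (Math1-cre with Ptc1+/-), 34.9% (Tlx3-cre with Ptc1+/-), 0.658% (Olig2-tva-cre with hGFAP-cre) and 13.9% (hGFAP-cre with Ptc1+/-).

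The order of means for the other genes, on the probe set used for each, had steps within their spread. Insm1 ran from hGFAP-cre at 11.50 ± 0.73 (SD, n = 6) through Olig2-tva-cre, Math1-cre and Ptc1+/- to Tlx3-cre at 10.91 ± 0.28 (n = 3). On its other probe set, 1421399_at, Math1-cre was highest at 11.37 ± 0.18 (n = 3) and hGFAP-cre lowest at 10.64 ± 0.36 (n = 6). Tox3 ran from Math1-cre at 10.43 ± 0.31 (n = 3) through Tlx3-cre, hGFAP-cre and Olig2-tva-cre to Ptc1+/- at 9.63 ± 1.27 (n = 2). For Cd24a the highest mean was Tlx3-cre at 12.28 ± 0.18 (n = 3) and the lowest Olig2-tva-cre at 11.86 ± 0.28 (n = 7), with Math1-cre, hGFAP-cre and Ptc1+/- between. Tlx3-cre tumours also had the highest mean for Nhlh1, 9.13, and Nhlh2, 10.18, and Olig2-tva-cre tumours the lowest for both, 8.73 and 9.48. Cntn2 was highest in hGFAP-cre tumours, 9.34 ± 0.49 (n = 6), and lowest in Ptc1+/- tumours, 8.18 ± 2.46 (n = 2). Stmn1 had the reverse place for Olig2-tva-cre tumours, which were highest at 13.03 ± 0.44 (n = 7), with Math1-cre tumours lowest at 12.47 ± 0.33 (n = 3).

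The hGFAP-cre and Olig2-tva-cre tumours, whose drivers are active in several kinds of progenitor, were next compared with the Math1-cre and Tlx3-cre tumours, whose drivers are active in granule cell precursors. Limma called 35 genes of 13527 (0.259%) and 0 of the 8. Dcx was lower by a mean of -0.76 (95% interval -1.32 to -0.20), with an unadjusted p of 0.00991 by limma and an adjusted p of 0.194. It was the only one of the 8 with an unadjusted p under 0.05. This was the largest of the Dcx values: the other probe sets gave -0.32 (1418139_at), -0.39 (1448974_at) and 0.0045 (1418140_at), and the mean of the 4 gave -0.37 with an adjusted p of 0.354. The Dcx probe set used was lower on the 4 tumour arrays of high 3′/5′ ratio, which were Olig2-tva-cre and hGFAP-cre arrays, and the difference was -0.68 with an adjusted p of 0.309 when the ratio entered the fit. Stmn1 differed by 0.34 (-0.03 to 0.71, adjusted p 0.371) and Insm1 by 0.41 (-0.35 to 1.17, adjusted p 0.610). The other Insm1 probe set, 1421399_at, had the opposite sign, at -0.40 (limma adjusted p 0.557). The intervals for Cd24a, -1.10 to 0.52, and Tox3, -0.76 to 0.45, reached on both sides of 0. Nhlh1 differed by -0.13 (-0.57 to 0.31), Nhlh2 by -0.27 (-0.67 to 0.12) and Cntn2 by 0.21 (-0.48 to 0.90).

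Within the first of these pairs, hGFAP-cre tumours were compared with Olig2-tva-cre tumours. Nhlh2 was higher in hGFAP-cre tumours by 0.68, or 1.60-fold (SE 0.22, 95% interval 0.24 to 1.13), with an unadjusted p of 0.00387 and a limma adjusted p of 0.0694. Cntn2 was higher by 1.00, or 2.00-fold (SE 0.38, 0.22 to 1.77, unadjusted p 0.0137), with an adjusted p of 0.120. The other Cntn2 probe sets gave 0.83 (1435166_at), 0.89 (1456962_at) and, with the opposite sign, -0.14 (1450523_at), and their mean with the one used was 0.64. Over all genes 404 (2.99%) were called, and 0 of the 8, with 2 at an unadjusted p under 0.05 on the probe sets used. That count over all genes depended on single arrays, from 82 without Olig2 7 to 1395 without Olig2 3. The array ranges overlapped for both genes: Olig2 4 at 10.37 and Olig2 2 at 9.57 reached into the hGFAP-cre range of Nhlh2, whose lowest array was hGFAP 4 at 9.51. Olig2 4 and hGFAP 4 are arrays of high 3′/5′ ratio. Without the 5 arrays of highest ratio the Nhlh2 difference was 0.92 with an adjusted p of 0.0103; without Olig2 4 alone the p was 0.0164, and without hGFAP 4 alone it was 0.0421. With the ratio as a covariate, by contrast, the difference was 0.62 with an adjusted p of 0.150, and with array brightness as a covariate 0.64 with 0.0918. For Cntn2 the adjusted p was 0.0458 when either Ptc1+/- array was left out, since these arrays enter the shared estimate of spread. Stmn1 went the other way, at -0.36 (-0.78 to 0.06, adjusted p 0.293). The remaining 5 genes had differences between -0.02 and 0.25 on the probe sets used. Their other probe sets reached further, with Dcx at 0.54 (1418139_at), -0.30 (1418140_at) and -0.86 (1448974_at). Insm1 gave -0.52 (1421399_at), and Cd24a gave -0.39 (1416034_at) and 0.06 (1437502_x_at). None of these passed adjustment. Mature granule neuron markers were at list means of 6.36 to 8.92 (median 6.84) in Olig2-tva-cre and 7.06 to 8.84 (median 7.91) in hGFAP-cre tumours, 5 of 7 Olig2-tva-cre arrays lying below every hGFAP-cre array, and their part was not tested.

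Ptc1+/- tumours were compared with the 19 SmoM2 tumours, which asks whether loss of a Patched copy and activated Smoothened gave like levels. Limma called 74 genes (0.547%) and 0 of the 8, of which 0 had an unadjusted p under 0.05 on the probe sets used. On these, the largest differences were Tox3 at -0.70 (-1.62 to 0.22, adjusted p 0.558) and Cntn2 at -0.55 (-1.60 to 0.49, adjusted p 0.703). The other 6 lay between -0.25 and 0.20. The intervals ran from -1.39 to 1.06 for Cd24a, from -0.67 to 1.04 for Dcx and from -0.37 to 0.76 for Stmn1. Other Cntn2 probe sets gave -1.38 (1456962_at, limma unadjusted p 0.0136, adjusted p 0.340), 0.63 (1450523_at) and 0.18 (1435166_at). Those of Dcx gave 0.83 (1448974_at), 0.30 (1418140_at) and -0.28 (1418139_at). Tlx3-cre tumours were compared with Math1-cre tumours, where limma called 0 genes (0%), 576 having an unadjusted p under 0.05, and 0 of the 8 at either level. On the probe sets used, the largest difference was Cntn2 at 0.71 (-0.43 to 1.85). The plot of differences between tumour groups shows these values and their intervals.

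**Figure D4:**
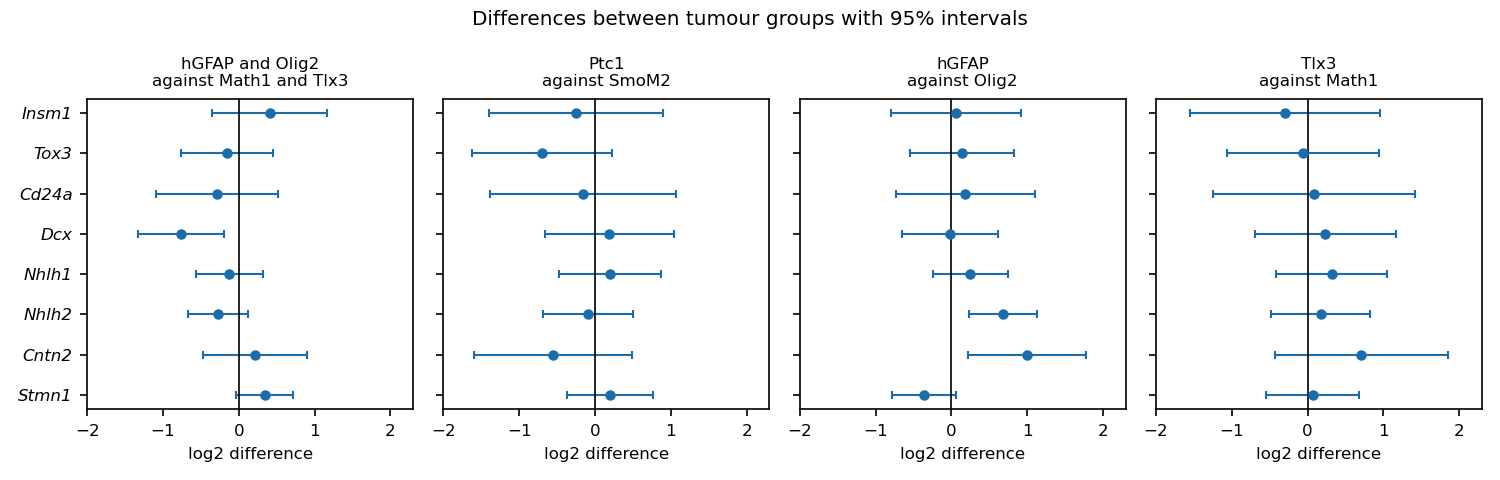
The log2 difference between tumour groups (horizontal axis) is plotted for each of the 8 genes (vertical axis) in 4 comparisons, with 95% intervals of the fit. The intervals of Dcx in the first and of Nhlh2 and Cntn2 in the hGFAP against Olig2 comparison do not include 0, although none of these 3 passed adjustment over all genes.

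Close relatives from outside the 8 genes mostly did not rise. Nhlh1 and Nhlh2, relatives of each other, both lay above control tissue and are not counted among them. The falls include those of contactins, relatives of Cntn2, which itself had no general gain. Of the 14 relatives measured, 1 rose, 8 fell and 5 did not pass the test in tumours against control tissue, with a median difference of -0.77; over all genes 26.8% rose and 25.6% fell, and the median was 0.02. Without scaling of the arrays, which moved the median of all genes to -0.34, the counts over all genes were 1549 higher and 4055 lower against 3630 and 3462, and those of the relatives were again 1 and 8. The list was chosen as relatives of genes picked for their gains. Insm2, the relative of Insm1, rose by at least 3.08 (limma adjusted p 2.77e-08), with 5 of 6 controls at the floor and all 21 tumour arrays above all controls. None of the relatives of Tox3 rose: Tox2 fell by 0.71 (adjusted p 0.00851), and Tox and Tox4 had differences of 0.33 and 0.04. Among the doublecortin-like kinases, which share the microtubule-binding domain of Dcx, Dclk1 differed by 0.42 and Dclk2 by 0.52 (adjusted p 0.0875), and Dclk3 fell by 0.83 (adjusted p 0.0396). Stmn2 and Stmn3, stathmins of maturing neurons, fell by 1.20 and fell by 1.22 respectively, and Stmn4 differed by -0.34 (adjusted p 0.388).

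Contactins, the family of Cntn2, had the largest falls. Cntn6 averaged 8.63 ± 0.49 (SD, n = 6) in control tissue and fell by 4.22. Cntn4 fell by 2.94 with 15 tumour arrays at the floor and Cntn3 by 2.73 with 8 at the floor, so both are lower bounds of the fall. Cntn1 fell by 1.86. In all 4 of these contactins every tumour array was below every control array, whereas Cntn2 overlapped control tissue. Between the kinds of tumour, 0 of the 14 relatives were called in any of the 5 comparisons.

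**Figure D5:**
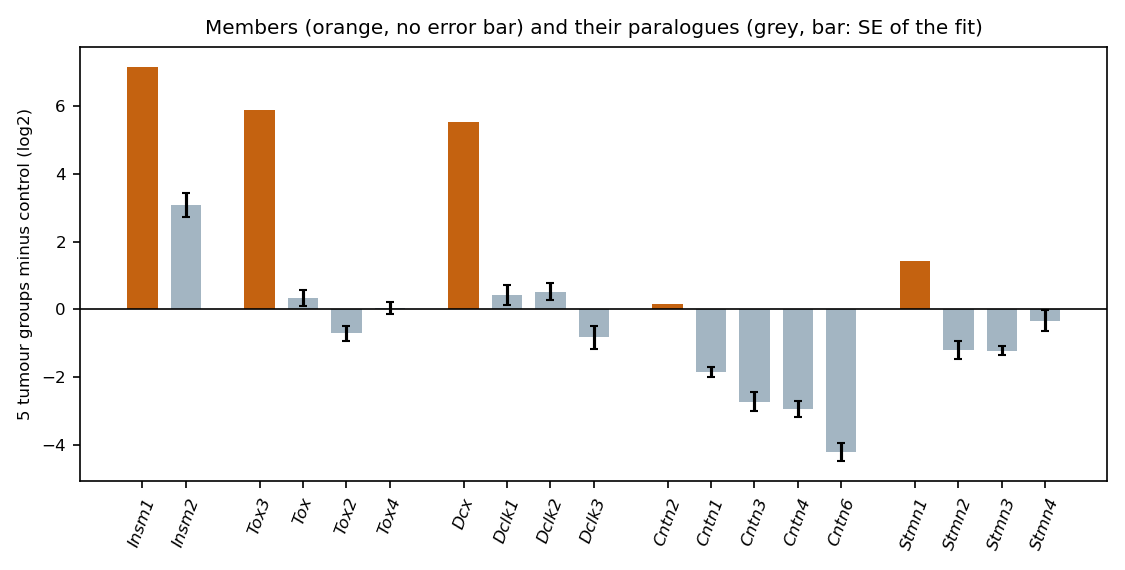
Bars give the mean of the 5 tumour groups minus control on the log2 scale (vertical axis) for members of each family (horizontal axis), the genes described here in orange and their relatives in grey with the SE of the fit. Insm1 and Insm2 are both above 0, and the contactins other than Cntn2 are all below 0.

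Further lists describe other genes of immature neurons and of granule cell differentiation, and they were drawn up knowing earlier results of these data. They assign none of the 8 genes to a step. Of 25 other genes of immature neurons, 19 rose, 1 fell and 5 did not pass the test, with a median of 1.76. Sox11, a transcription factor of newborn neurons, rose by 6.53, Igfbpl1 by at least 5.60 with all 6 controls at the floor, and the axon guidance gene Draxin by 5.22. The lowest were Mllt11, which fell by 0.67 (adjusted p 0.00369), and the adhesion gene Nrcam, at -0.28 (adjusted p 0.119). Of 16 neurogenic transcription factors measured, 11 rose and 4 fell, with a median of 1.24. Atoh1, the determinant of granule precursors and the gene whose other name is Math1, rose by 4.69, Neurod6 by 3.24 and Insm2 by at least 3.08. Neurod2 and Myt1l, factors of more mature neurons, fell by 2.21 and 1.05.

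Genes listed for the migration of granule cells, not all of them limited to the stage that Cntn2 marks, were divided. Of 16, 7 rose, 6 fell and 3 did not pass the test, with a median of -0.14. The netrin receptor Dcc rose by 5.79, the chemokine receptor Cxcr4 by 4.76 and the semaphorin receptor Plxnb2 by 2.33. Unc5b and Unc5c, which encode netrin receptors of the repulsive kind, fell by 2.22 and fell by 1.39 respectively. Between kinds of tumour, 0 of the 25 other immature neuron genes were called in any comparison. In hGFAP-cre against Olig2-tva-cre tumours, Neurod2 was higher by 1.20 (limma adjusted p 0.0135), Myt1 by 1.02 (0.0151), Neurod1 by 1.00 (0.0332) and Unc5c by 0.67 (0.0405). These were 3 of 16 neurogenic factors, whose list median was -0.01, and 1 of 16 migration genes, with a median of 0.38. Over all genes 2.99% were called in this comparison. The astrocyte markers Gjb6 (1.70, adjusted p 0.0455) and Aqp4 (1.17, 0.0103) and the microglia marker Csf1r (1.16, 0.00218) were also higher in hGFAP-cre tumours. These were 2 of 9 astrocyte markers, with a list median of 0.28, and 1 of 9 microglia markers, with a median of -0.02. The part of these markers was not tested.

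On the probe set used for each, the 8 genes did not vary as a block within the tumours. Some probe sets of the same gene did not vary together either, with r from -0.47 for those of Insm1 to 0.82 for Dcx 1418140_at with 1448974_at. Low correlations between genes therefore cannot show that the genes themselves varied separately. The Insm1 probe set used, on which its most alike genes rest, was higher on the 4 tumour arrays with the highest ratio of Gapdh and Actb end signals. Over the 21 tumour arrays, which share array brightness and RNA quality as sources of variation, the highest correlation among the 28 pairs was between Nhlh1 and Nhlh2, at r = 0.66. Nhlh1 and Cntn2 followed at 0.61. The lowest was -0.65, between Cd24a and Stmn1. The genes most like each of them over these arrays were Ccdc59 (0.89), Dhx36 and Wdr26 for Insm1, Spred1 (0.91), Actr3 and Mib1 for Tox3, and Cep170 (0.91), Dennd11 and C230091D08Rik for Cd24a. They were Mfap2 (0.81), Tet1 and S100pbp for Dcx, Apc (0.84), Purg and Cilk1 for Nhlh2, and Sart1 (0.92), Hspa8 and Trir for Stmn1. For Nhlh1 they were Stmn4 (0.84), Btbd17 and the neural adhesion gene L1cam, and for Cntn2 the neuronal gap junction gene Gjd2 (0.81), Apc2 and Aplp1. Over all 27 arrays, where the difference from control tissue sets most of the pattern, the genes most like the mean of the 8 were Miat (0.98), Ebf3 (0.98), Tmeff1 (0.98), Dpysl3 (0.97) and Kif23 (0.97).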

How the data were processed

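Total RNA had been extracted with Trizol and RNeasy and hybridised as biotinylated cRNA, per the labels' protocols. The deposited values are linear signal intensities for 45101 probe sets from MAS5, per the submitters' processing notes; its version and scaling target were not given in the sources used here. Each array was rescaled to the common mean of 124 after trimming 2% at each end. Values under the 20th percentile of the table (10.3 signal units) were set to it before log2. Probe sets above the table's median signal of 45.6 on at least 3 arrays were kept (30107), and per gene the one with the highest mean (13527 genes); of all probe sets 34945 carried 1 gene symbol, 932 several, and 9160 were not listed in the annotation. Probe sets whose names end in _s_at, _a_at or _x_at can match several transcripts. Limma 3.58.1 in R 4.3.3 fitted 6 group means to all 27 arrays with a trended, robust prior; p-values were adjusted by Benjamini-Hochberg over all 13527 genes and called below 0.05. With 21 residual degrees of freedom, the number of arrays limits the precision. The fit was tested on simulated data. Promoters came from RefSeq (GRCm38.p6).

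The members and lists were chosen with earlier results of these data known. Named were the 8 genes, their relatives, of each neuronal list the 3 highest and 2 lowest genes against control, genes called between tumours, and the 3 genes most correlated with each of the 8. Same-numbered arrays did not deviate together (29 pairs, r from -0.34 to 0.28, median 0.05), so the numbers were not taken as pairs. Alternatives covered scaling, floor, filter, probe set choice, covariates, weights and each array left out; the fit of all probe sets, the tumour against control test of the lists and the fit without controls 5 and 6 were added after seeing the data.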

Additional observations from a re-analysis of the deposited data

Results flagged for a closer look

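Arrays far from the rest of their group appeared in 2 of the 24 sets of values examined (8 genes in the Olig2-tva-cre, hGFAP-cre and control groups); chance marks about 1 in 20 such sets. Insm1 on control 6 was at a log2 signal of 6.73, with the nearest other control at 4.09 and 4 controls at the floor. Nhlh2 on Olig2 4 was at 10.37, with the nearest other Olig2-tva-cre array at 9.57.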

How the results depend on the processing

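The sign of the difference from control tissue held for Insm1, Tox3, Cd24a, Dcx, Nhlh1, Nhlh2 and Stmn1 under each alternative run, and Cntn2 ranged from -0.19 to 0.80. Of 338 values against control, 7 moved by more than the spread between replicates (Insm1, Tox3 and Nhlh1 with no floor, Cd24a without controls 5 and 6, and Dcx with its mean of probe sets and on 2 single probe sets); of 1770 values between tumour groups, 17 crossed the threshold. The 8 genes had 0 calls in the probe-set fit. Differences among the 5 tumour groups (245 genes) numbered 1134 with array weights, 80 with brightness as covariate, 126 without controls 5 and 6, 734 without the 5 arrays of highest 3′/5′ ratio, 4728 without rescaling and 17 on tumour arrays only. The hGFAP against Olig2 count (404 of 13527 genes, 2.99%) was 151 with the 3′/5′ ratio as covariate and 1768 without the 5 highest-ratio arrays. It was 0 without the 7 dimmest arrays, 3 without rescaling and 96 on tumour arrays only. Over probe sets it was 680 of 30107 (2.26%), and the counts over probe sets given below are also of 30107. The count for the hGFAP and Olig2 tumours together against the Math1 and Tlx3 tumours (35) was 10 with the ratio, 13 with 75th percentile scaling, 520 with weights, 6 with brightness, 11 over probe sets, 4 with the lower floor, 3 without controls 5 and 6, 4 without the highest-ratio and 9 without the dimmest arrays, 4 with no filter, 6958 without rescaling, 8 with no trend, 4 with quantile normalisation and 2 on tumour arrays only. For Ptc1 against SmoM2 (74) it was 8 with weights, 10 with brightness, 194 without the dimmest arrays, 47 with the mean of probe sets, 126 with no filter, 39 with no floor, 785 without rescaling, 124 with quantile normalisation and 24 on tumour arrays only. Tlx3 against Math1 gave 101 with weights and 1 over probe sets. With the replicate number as a block, fitted on the tumour arrays only, these counts were 9, 9, 4 and 17 in the order above, to be set against 17, 96, 2 and 24 on those arrays with no block, and 0 of the 8 genes were called. Leaving out each array in turn gave 94 (without Tlx3 2) to 537 (without Olig2 3) genes, 82 (without Olig2 7) to 1395 (without Olig2 3), 2 (without Math1 1) to 81 (without Olig2 2), 35 (without Ptc1 2) to 137 (without Ptc1 1) and 0 to 0. Of the 27 arrays, 16, 9, 21, 5 and 0 moved the count by over 1.5 times. Without rescaling, 1549 genes were higher than control.

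Of the 8 genes, Cntn2 passed the test among the 5 groups without the 7 dimmest arrays (2.91, adjusted p 0.0268) and without Ptc1 array 2 (2.90, 0.0220), where 1 Ptc1+/- array was assumed to vary like the other groups, and in Ptc1 against SmoM2 without the dimmest arrays (-2.30, 0.0223), so 1 gene in each. Without rescaling, 3 passed among the 5 groups and 5 in hGFAP and Olig2 against Math1 and Tlx3 (Dcx at -1.55, adjusted p 0.0110). In hGFAP against Olig2, 1 passed with quantile normalisation (Nhlh2 at 0.76, 0.0470) and 1 without the highest-ratio arrays. Leaving out each array, 0 to 1 passed among the 5 groups and in hGFAP against Olig2, and 0 elsewhere. Relatives called higher were 2 with weights, without the dimmest arrays or with the mean of probe sets, and 1 to 2 leaving out arrays; 7 to 8 were lower. The cause of these changes was not tested. Arrays of low brightness limit what low signals can show.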
